A study of Monodelphis domestica with 18 samples.

Results

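The divergence of opossum kidney cells kept under orbital shear stress (OSS) from cells kept static was followed from 48 to 96 h. The libraries were chosen by their culture condition and time, and 12 of the 18 libraries of the series entered: 3 each of Static 48 h, Static 96 h, OSS 48 h and OSS 96 h. The quantity tested was the change from 48 to 96 h under OSS minus the change over the same hours in Static culture, called here the difference of late changes. All 4 groups were wild type OK cells, an epithelial line of the opossum kidney proximal tubule, grown on permeable supports, in DMEM/F12 with 10% FBS and GlutaMAX. The OSS filters were moved the day after plating (0 h) to an orbital shaker at 146 rpm, while the Static filters stayed unmoved in the same medium. Time and time since plating cannot be told apart in these groups, and OSS also moves the medium, so that shear cannot be told apart from its mixing. Each library held pooled RNA of 3 experiments, and the 3 samples of a group are given as independent. P-values without the replicate block described below measure the spread between such pools. Those with it measure the spread left once shifts shared by a replicate number are removed. No source used here says what libraries of the same number share. The Static 0 h and OSS 12 h libraries entered only the estimate of the spread.

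The proximal tubule reabsorbs most of what the glomerulus filters. Its cells carry a brush border packed with peptidases and sodium-coupled carriers, a basolateral set of organic anion and cation transporters, the endocytic receptors megalin and cubilin, and a metabolism built on fatty acid oxidation and amino acid breakdown. In culture, proximal tubule cells tend to lose part of this program, and fluid shear stress is known to raise apical endocytosis in OK cells.

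Proximal tubule markers were transcribed in all 4 groups, but much of their sum lay in LRP2, with a mean of 4376 CPM at Static 96 h. SLC22A6 had a mean of 5.82 CPM in that group. Of 16 proximal tubule markers 13 were measured well enough to be tested, and SLC22A8, AQP1 and GGT1 were not. Their summed level lay between 10339 and 12599 CPM, counts scaled to the size of the library in the Static 48 h libraries, between 8768 and 9306 CPM at Static 96 h, between 15059.7 and 17691 CPM at OSS 48 h and between 14714 and 18545 CPM at OSS 96 h. For the 8 of 19 distal nephron markers tested, the sums lay between 29.1 and 124 CPM over the 12 libraries. For the 4 of 10 fibroblast markers tested they lay between 162 and 1072 CPM at Static 48 h, between 804 and 2107 CPM at Static 96 h, and between 32.9 and 209 CPM in the 6 OSS libraries. The defining fibroblast genes DCN, LUM, COL3A1 and THY1 did not pass the filter on low counts, and POSTN, a matrix protein, held most of the sum. For the 4 of 7 podocyte markers tested the sums lay between 102 and 232 CPM. Their median difference of late changes was 0.41 with none called, and 4 of 4 were positive, beside 6273 of all 12840 tested genes. For 3 of 10 endothelial and 3 of 10 immune markers tested the sums stayed between 37.2 and 71.8 CPM and between 6.90 and 11.2 CPM. The part of such cells in the results below was not tested.

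The 12 libraries held 40154553 to 79745362 counts on genes. Of 23899 genes 12840 were tested, those whose level exceeded 1 CPM in 6 or more libraries. Libraries numbered 1 stood apart from the others. Within a group, their root mean square distance to number 2 lay between 0.40 and 0.61 and that to number 3 between 0.45 and 0.68 on the log2 scale, against 0.24 to 0.31 between numbers 2 and 3. Libraries of the same number deviated together in every group (processing notes), so that differences, list counts and list medians are given from a fit in which the number is a block. Without that block no gene passed the test of the difference, whether or not the value is repeated beside it.

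Over all genes the distance between OSS and Static cells changed little from 48 to 96 h, and not in the same direction in every replicate number. The median size of the log2 fold change of OSS against Static, taken within each replicate number, was 0.36 ± 0.04 at 48 h and 0.34 ± 0.01 at 96 h (SD, n = 3). In numbers 1, 2 and 3 it was 0.40, 0.35 and 0.32 at 48 h, then 0.33, 0.34 and 0.35 at 96 h. The root mean square, which weights large changes, was 0.73 ± 0.05 at 48 h and 0.75 ± 0.03 at 96 h. It was 0.73 and 0.76 in number 2, 0.68 and 0.72 in number 3, and 0.78 and 0.77 in number 1. The gap was larger at 96 h than at 48 h for 48.9% of the tested genes. 

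Without the block, 0 of 12840 genes passed an adjusted p of 0.05 in edgeR's quasi-likelihood test (0%, smallest adjusted p = 0.120). At an unadjusted p under 0.05 there were 1580, DESeq2 called 228 and limma-voom 1. With the replicate number as a block, 138 genes passed, 1.07% of those tested: 82 with a difference above 0 (0.639%) and 56 with a difference below 0 (0.436%). All 138 had the same sign of the difference in each of the 3 numbers, as selection by this test favours, and the median size was 0.71 on the log2 scale. The count rested on single libraries. It became 1332 when replicate 3 of Static 48 h was left out, and 35 or 13 when replicate 1 or 2 of Static 96 h was. Dropping replicate 1, 2 or 3 of OSS 48 h gave 12, 37 or 47 calls, and dropping replicate 1, 2 or 3 of OSS 96 h gave 60, 21 or 46. Leaving out all 6 libraries numbered 1 left 19 calls, all above 0, of which 11 were among the 138. Every one of the 138 kept its sign, which follows largely from their equal signs in the 3 numbers. Calls above 0 outnumbered those below by 124 to 50 without scaling factors and were outnumbered 102 to 122 with DESeq2's size factors.

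**Figure D1:**
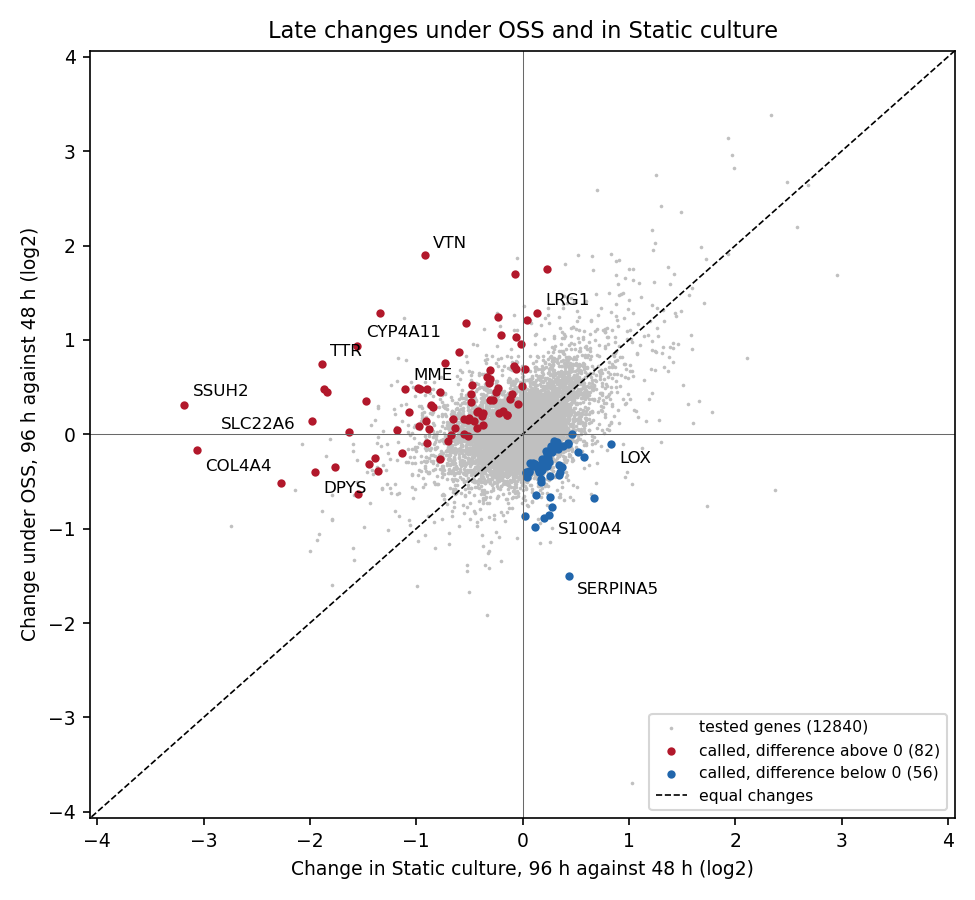
Change from 48 to 96 h in Static culture (x axis, log2) against the change under OSS (y axis, log2) for the 12840 tested genes, with the 138 called genes coloured by the sign of the difference. The 82 genes above the line of equal changes lie mostly to the left, where Static cells lost transcript, and the 56 below it lie mostly beneath 0 on the OSS axis.

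The genes with a difference above 0 were mostly ones that static cells lost. Among the 82, 52 fell in Static culture from 48 to 96 h and none rose, while 33 rose under OSS and 3 fell. The fall was the only step that passed for 44, the OSS rise the only one for 28, and 5 both fell in Static culture and rose under OSS. Their median change was -0.54 in Static culture and 0.32 under OSS. Over all genes the Static step was largest in number 1, with a root mean square of 0.58 against 0.31 and 0.30 in numbers 2 and 3. Under OSS the values were 0.42, 0.31 and 0.35. Number 1 held the largest of the 3 differences in 49 of the 82 genes, and in 38 of the 56 below 0. Among the 56 with a difference below 0, 40 fell under OSS and 23 rose in Static culture, with 33 and 16 where that was the only step that passed. Their median changes were 0.23 in Static culture and -0.32 under OSS. Beside this, 11.4% of all tested genes changed under OSS (6.31% rose and 5.05% fell) and 10.4% in Static culture (5.12% rose and 5.31% fell) with the block; without it 310 and 59 genes passed. The gap between OSS and Static kept its sign and was wider at 96 h for 76 of the 138, narrower for 19 and of opposite sign for 43.

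SLC22A6 (ENSMODG00000008309), the organic anion transporter OAT1 of the basolateral membrane, was among the genes with the smallest p without the block, while COL4A4 and DPYS below had smaller p with it. It stood at 30.3, 17.3 and 22.3 CPM in the Static 48 h libraries 1 to 3 and at 6.60, 5.03 and 5.82 CPM at Static 96 h. The OSS libraries held 41.8, 28.6 and 36.9 CPM at 48 h and 39.5, 31.8 and 45.5 CPM at 96 h. All 3 Static 96 h libraries thus lay below the other 9 of these 12 libraries. The difference of late changes was 2.12 ± 0.23 on the log2 scale (SE, n = 3, edgeR adjusted p = 0.000653 with the block and 0.120 without). Of the 17 organic ion and ABC transporters tested, SLC22A6 was the 1 that passed, while 0.639% of all tested genes passed above 0. The median difference of the 17 was 0.41 beside -0.01 over all genes. It became 0.13 without the libraries numbered 1 and 0.22 with the length trend described below removed.

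Brush border genes gave more calls than any other of the 37 lists, which were chosen with earlier results of these data known. Of 28 tested, 8 had a called difference above 0 and none below, beside 0.639% and 0.436% of all tested genes. The median difference was 0.32. Within Static culture 13 fell and 2 rose, and under OSS 6 rose and 2 fell. Over all tested genes 5.31% fell and 5.12% rose in Static culture, and 6.31% rose and 5.05% fell under OSS. MME (ENSMODG00000015805), the membrane peptidase neprilysin, lay at 117, 70.2 and 56.4 CPM at Static 48 h and 38.3, 38.8 and 32.4 CPM at Static 96 h. Under OSS it lay at 285, 214 and 182 CPM and then at 379, 307 and 263 CPM. The Static and OSS libraries did not overlap at either time, and the gap went from 1.51 ± 0.13 to 3.09 ± 0.14 on the log2 scale. Its difference was 1.59 ± 0.19 (adjusted p = 0.00106 with the block, 0.132 without).

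ANPEP, which encodes aminopeptidase N, had a wider gap at 96 h than at 48 h. At 48 h its Static libraries held 584, 350.1 and 379 CPM and its OSS libraries 459, 512 and 474 CPM, so that the groups overlapped, with OSS above Static in numbers 2 and 3 and below it in number 1. At 96 h they held 284, 222 and 224 CPM against 559, 629 and 575 CPM and no longer did. The difference was 1.13 ± 0.21 (adjusted p = 0.0243 with the block, 0.180 without). CDH16, the kidney-specific cadherin, fell from 989 ± 112 to 450.4 ± 26.6 CPM in Static culture (SD, n = 3) and lay at 1454 ± 84.4 and 1281 ± 205 CPM under OSS. Its difference was 0.94 ± 0.15 (adjusted p = 0.0149 with the block, 0.180 without). PARM1, a mucin-like membrane protein, lay at 43.0 ± 5.45 CPM at Static 48 h and 41.3 ± 3.90 CPM at OSS 48 h, then at 23.4 ± 0.920 and 51.3 ± 8.21 CPM.

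The dipeptidase gene DPEP1 had a difference of 1.06 ± 0.21 and UNC93A one of 1.76 ± 0.27, both from falls in Static culture. MEP1A, which encodes the alpha subunit of the metalloproteinase meprin, and FAM151A differed the other way round: they rose under OSS, by 0.88 ± 0.19 and 1.75 ± 0.22, and did not pass in Static culture (-0.60 ± 0.19 and 0.23 ± 0.24). DPP4 (0.56) and the actin-bundling gene VIL1 (0.08) are brush border members whose difference did not pass.

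**Figure D2:**
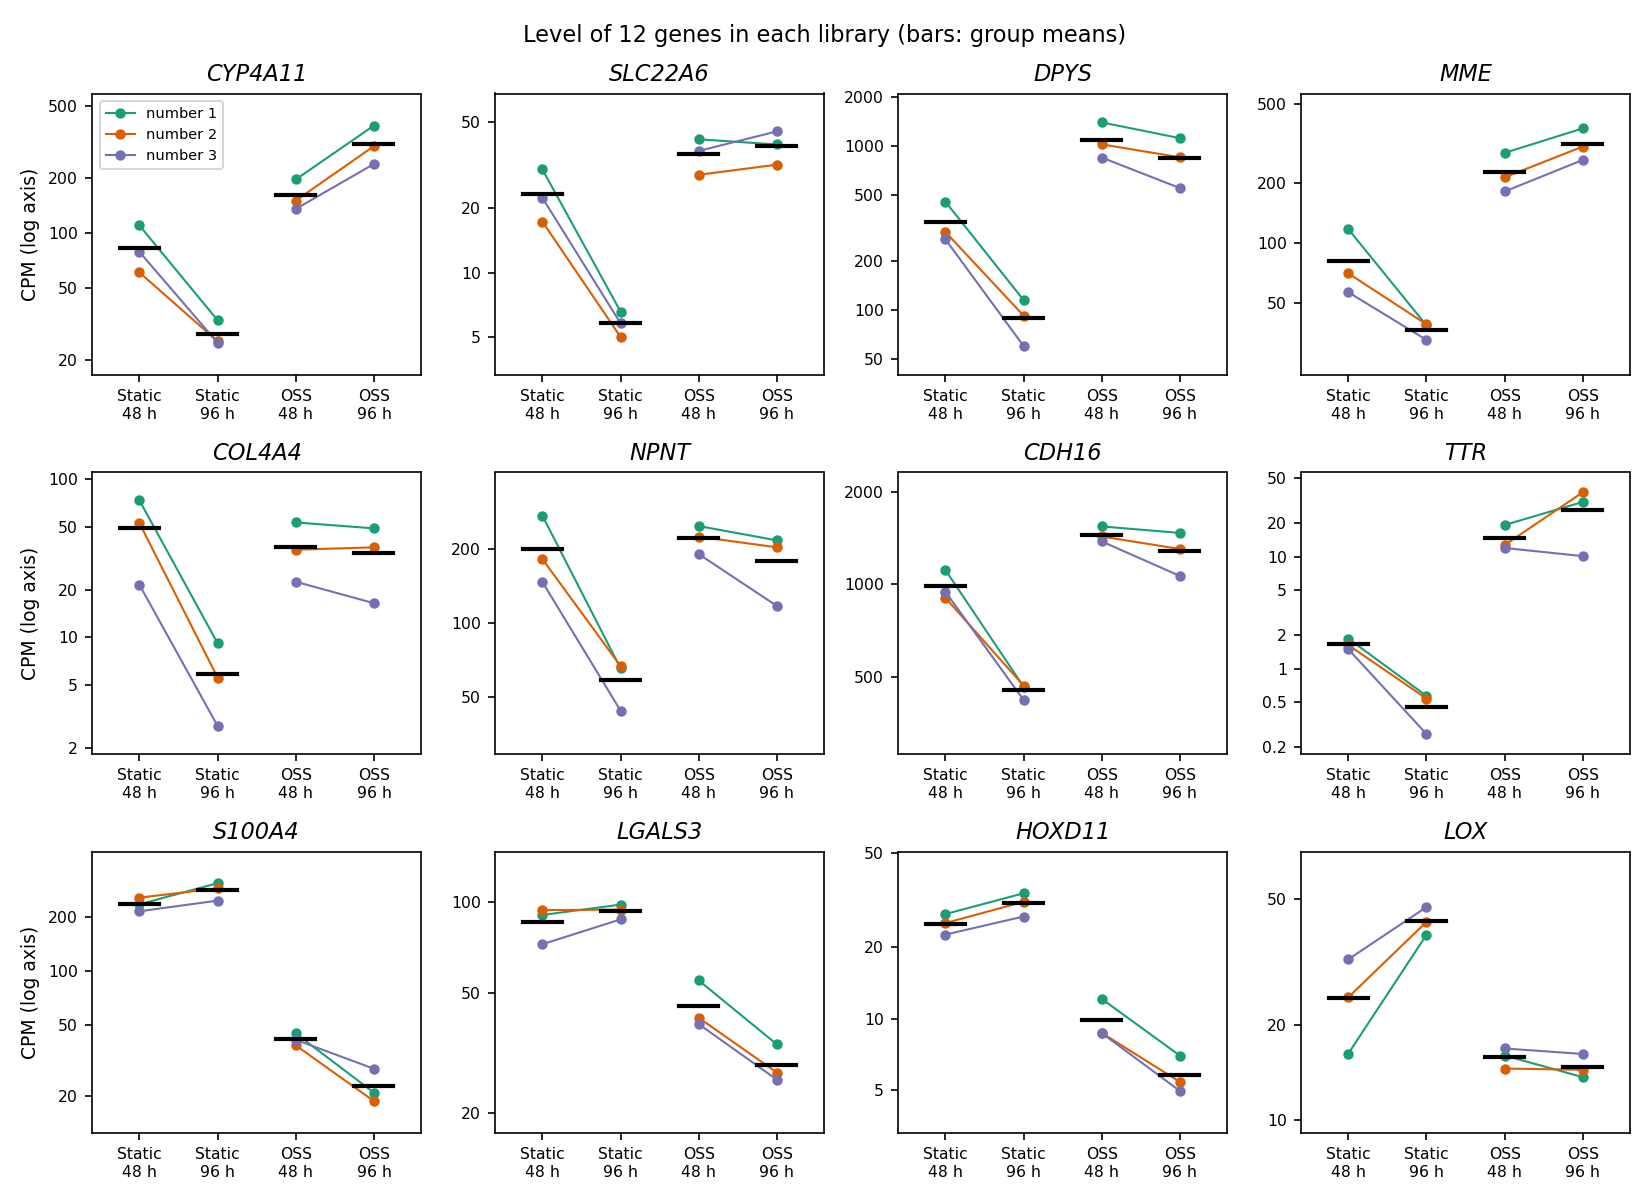
Level (CPM, log axis) of 12 genes in the 12 libraries, with lines joining the 48 h and 96 h libraries of the same number and bars at group means. In the first 8 panels all 3 Static lines fall from 48 to 96 h, while in S100A4, LGALS3 and HOXD11 all 3 OSS lines fall, and in LOX all 3 Static lines climb.

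Carriers for sodium-coupled and sugar uptake gave 3 called genes of 25 tested, all above 0, beside 0.639% of all tested genes. The median difference was 0.32, or 0.23 without the libraries numbered 1 and 0.33 with the length trend described below removed. In Static culture 10 of the 25 fell and none rose, beside 5.31% and 5.12% of all tested genes. SLC5A12, a sodium-coupled lactate transporter, fell in Static culture from 64.1 ± 11.4 to 25.2 ± 6.14 CPM, and lay at 72.3 ± 11.9 and 56.5 ± 16.2 CPM under OSS (difference 0.97 ± 0.21, adjusted p = 0.0364 with the block, 0.393 without). The fructose transporter gene SLC2A5 fell from 98.3 ± 33.1 to 51.0 ± 1.55 CPM in Static culture beside 230.4 ± 41.6 and 214 ± 26.9 CPM under OSS. The difference was 0.80 ± 0.16.

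SLC5A10, a sodium-coupled sugar transporter, converged instead. Its Static libraries went from 31.1, 19.1 and 14.2 to 13.2, 13.0 and 12.1 CPM, and its OSS libraries from 4.23, 4.58 and 3.67 to 6.78, 6.66 and 7.54 CPM. It stayed lower in every OSS library than in any Static one, with a gap of -2.35 ± 0.22 at 48 h and -0.86 ± 0.21 at 96 h. KL, which encodes klotho, the co-receptor of FGF23, also had a narrower gap at 96 h, with a value of -4.46 ± 0.41 at 48 h and -1.84 ± 0.37 at 96 h. It was low under OSS, at 0.179 to 0.397 CPM at 48 h and 0.40 to 1.11 CPM at 96 h.

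Metabolic genes of the tubule held some of the largest differences. CYP4A11 (ENSMODG00000001890), a fatty acid hydroxylase and target of PPAR alpha, moved in opposite directions in the 2 conditions. It fell in Static culture from 110.1, 60.7 and 78.8 to 33.1, 25.4 and 24.9 CPM, and rose under OSS from 197, 151 and 135 to 389, 300.1 and 239 CPM. None of the 4 groups overlapped another. Its difference was 2.49 ± 0.27 (adjusted p = 0.000653 with the block, 0.120 without). ACSM2A, a medium-chain acyl-CoA synthetase of the kidney and liver, fell from 102 ± 35.7 to 33.1 ± 10.7 CPM in Static culture and lay at 135 ± 27.6 and 141 ± 47.0 CPM under OSS. These were the 2 of 30 tested genes of fatty acid oxidation and PPAR targets that passed, both above 0, beside 0.639% of all tested genes. The median difference of the 30 was 0.05.

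DPYS (ENSMODG00000005434), the dihydropyrimidinase of pyrimidine breakdown, fell in both conditions but far more in Static culture. Static libraries held 459, 300.0 and 271 CPM at 48 h and 115, 92.6 and 60.5 CPM at 96 h, and OSS libraries 1395, 1025 and 852 CPM and then 1117, 855 and 555 CPM. The fall was 1.96 ± 0.10 on the log2 scale in Static culture and 0.40 ± 0.10 under OSS, and the gap grew from 1.67 ± 0.10 to 3.23 ± 0.11. Its difference was 1.55 ± 0.14 (adjusted p = 8.0e-05 with the block, 0.219 without). UROC1 (urocanate hydratase of histidine breakdown) and ACMSD (a branch-point enzyme of tryptophan breakdown) had differences of 2.28 ± 0.40 and 1.37 ± 0.26, both with falls in Static culture. HOGA1, an aldolase of hydroxyproline breakdown, rose under OSS from 41.4 ± 2.45 to 66.4 ± 2.49 CPM beside 35.7 ± 3.48 and 28.9 ± 4.65 CPM in Static culture.

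ARG2, the mitochondrial arginase, went the other way. It fell under OSS from 228 ± 23.9 to 173 ± 24.8 CPM, while Static libraries held 91.6 ± 4.46 and 103 ± 15.2 CPM, so that the gap shrank from 1.31 ± 0.07 to 0.74 ± 0.07 (difference -0.57 ± 0.09, adjusted p = 0.0149 with the block, 0.227 without). On the list of amino acid and glyoxylate breakdown 2 of 33 tested genes passed above 0 (DPYS and ACMSD) and ARG2 below. Of all tested genes 0.639% passed above 0 and 0.436% below. Genes of gluconeogenesis gave 0 calls of 13.

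Plasma proteins, which the liver secretes and kidney epithelium also transcribes in part, had a median difference of 0.77 over 28 tested genes, beside 0.83 over 11 tested antimicrobial genes, none of which passed. Of the 28 plasma proteins, 4 passed above 0 and 1 below, and under OSS 12 rose and 1 fell. Over all tested genes 0.639% passed above 0 and 0.436% below, and 6.31% rose and 5.05% fell under OSS. TTR, the thyroxine carrier transthyretin, lay at 1.86, 1.63 and 1.49 CPM at Static 48 h and 0.572, 0.541 and 0.261 CPM at Static 96 h, against 19.1, 12.7 and 11.9 CPM and then 30.7, 37.4 and 10.1 CPM under OSS. OSS libraries lay above all Static libraries at both times, but OSS 96 h replicate 3 lay below its 48 h library. The difference was 2.63 ± 0.51 (adjusted p = 0.0270 with the block, 0.180 without). VTN, the adhesion protein vitronectin, rose under OSS from 2.24 ± 0.588 to 8.80 ± 4.29 CPM. Its Static libraries held 3 to 28 counts at 48 h and 3 to 13 counts at 96 h, so its difference of 2.82 ± 0.51 rests on few Static counts. AMBP, which encodes alpha-1-microglobulin and bikunin, had a difference of 1.48 ± 0.24, and the better measured of the 2 identifiers named ITIH4 one of 1.48 ± 0.28.

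SERPINA5, the protein C inhibitor, was the plasma protein with a difference below 0 and had the most negative value of all called genes. It fell under OSS from 2.82, 2.50 and 1.76 to 0.75, 0.985 and 0.677 CPM, while Static libraries held 9.95, 9.25 and 4.14 CPM and then 14.7, 12.2 and 5.14 CPM. Its gap went from -1.66 ± 0.22 to -3.59 ± 0.25 (difference -1.93 ± 0.32, adjusted p = 0.0166 with the block, 0.226 without). LRG1, a leucine-rich glycoprotein of plasma outside that list, rose under OSS from 8.90, 12.6 and 15.4 to 20.7, 30.5 and 39.3 CPM. Its Static libraries overlapped between times, at 7.71 to 13.4 CPM and 8.12 to 15.1 CPM, and the difference was 1.15 ± 0.17 (adjusted p = 0.00825 with the block, 0.269 without). LRG1 was chosen after its values were seen, as were ANPEP, DPEP1, PARM1 and KL above and NPNT, SSUH2 and DPP4, VIL1, VIM, SPP1 and LCN2 wherever they are given.

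COL4A4 (ENSMODG00000021210), a chain of the type IV collagen of basement membranes, had the largest called difference among genes above a mean of 1 log2 CPM with a unique symbol. Static libraries held 73.4, 52.7 and 21.5 CPM at 48 h and 9.17, 5.57 and 2.75 CPM at 96 h. OSS libraries held 53.2, 35.8 and 22.4 CPM and then 48.8, 37.0 and 16.4 CPM. At 48 h the conditions overlapped, and at 96 h each OSS library lay above all Static ones. The fall in Static culture was 3.06 ± 0.17 and the difference 2.89 ± 0.23 (adjusted p = 3.6e-05 with the block, 0.197 without). NPNT, the integrin ligand nephronectin of the tubular basement membrane, followed the same course, from 202 ± 65.9 to 58.7 ± 12.8 CPM in Static culture and from 222 ± 29.0 to 179.8 ± 54.4 CPM under OSS (difference 1.42 ± 0.16, adjusted p = 0.000753 with the block, 0.208 without). COL4A4 was the only 1 of 43 tested genes of the matrix and integrin list that passed, while 0.639% of all tested genes passed above 0. SSUH2 had the largest difference of all, 3.50 ± 0.43, at a low level: 4 to 7 counts in the Static 96 h libraries against 66 to 167 at OSS 96 h.

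**Figure D3:**
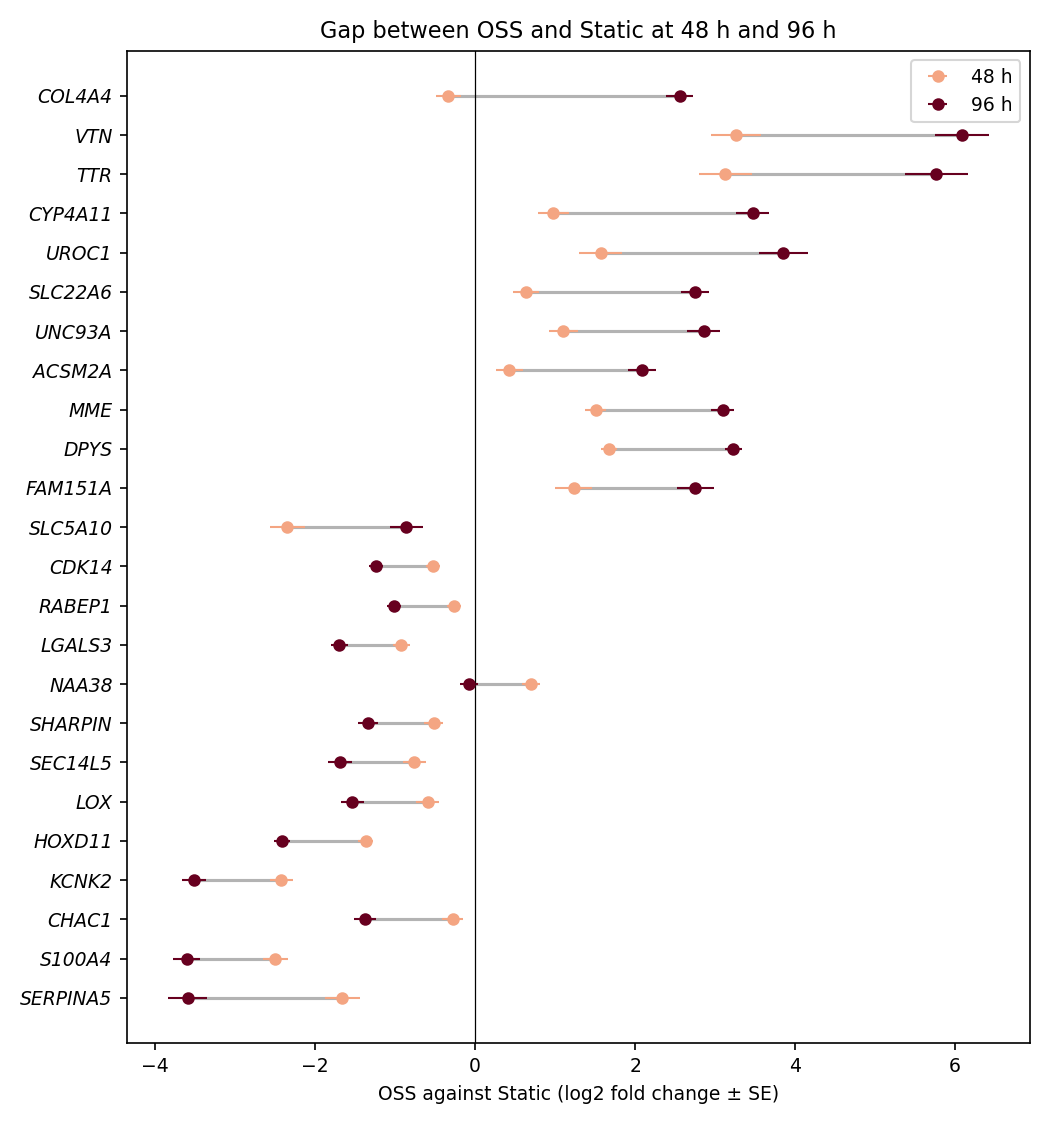
Log2 fold change of OSS against Static (x axis, ± SE) at 48 h and 96 h for the 12 largest called differences in each direction. COL4A4 goes from -0.33 to 2.56 and NAA38 from 0.70 to -0.07, SLC5A10 moves toward 0 from -2.35 to -0.86, and the others move away from 0.

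Of the 56 genes with a difference below 0, 6 had a size of at least 1. Among the 56 were 2 markers of tubular injury and dedifferentiation, S100A4 with such a size and LGALS3 with a smaller one. S100A4, a calcium-binding protein linked to mesenchymal change, fell under OSS from 44.7, 38.4 and 41.2 to 20.9, 18.8 and 28.4 CPM. Static libraries held 234, 255 and 214 CPM and then 307, 287 and 245 CPM, above every OSS library. The difference was -1.11 ± 0.22 (adjusted p = 0.0270 with the block, 0.135 without). LGALS3, which encodes galectin 3, fell under OSS from 55.1, 41.4 and 39.4 to 33.8, 27.3 and 25.8 CPM beside 85.9 ± 11.6 and 93.5 ± 5.32 CPM in Static culture (difference -0.77 ± 0.15). These were the 2 of 22 tested injury and dedifferentiation markers that passed, and the list median was -0.03, or 0.15 without the libraries numbered 1. Over the same hours 6 of the 22 rose and 3 fell under OSS, and 5 rose and none fell in Static culture. Of all tested genes 6.31% rose and 5.05% fell under OSS, 5.12% rose and 5.31% fell in Static culture, and 0.436% passed below 0. VIM (-0.31), SPP1 (-0.48) and LCN2 (1.90) did not pass.

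HOXD11, a homeobox gene of kidney patterning, fell under OSS from 12.1, 8.73 and 8.72 to 7.0, 5.43 and 4.97 CPM and lay at 25.2 ± 2.49 and 30.6 ± 3.43 CPM in Static culture. The 4 groups did not overlap except Static 48 h with Static 96 h, and the difference was -1.05 ± 0.13 (adjusted p = 0.00215 with the block, 0.176 without). KCNK2, the stretch-gated potassium channel TREK-1, fell under OSS from 4.54 ± 1.63 to 2.36 ± 0.527 CPM against 24.1 ± 6.88 and 27.4 ± 5.97 CPM in Static culture (difference -1.09 ± 0.20). CHAC1, a glutathione-degrading enzyme induced by ATF4, fell under OSS from 11.7 ± 2.29 to 5.88 ± 0.502 CPM and lay at 14.1 ± 2.12 and 15.5 ± 4.69 CPM in Static culture (difference -1.09 ± 0.19). It was the 1 of 31 tested ATF4 targets that passed, with a list median of -0.22. Of all tested genes 0.436% passed below 0.

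LOX, the lysyl oxidase that crosslinks collagen and a target of hypoxia-inducible factor, was a gene whose Static rise made the difference. It rose in Static culture from 16.2, 24.4 and 32.2 to 38.5, 42.3 and 47.1 CPM and lay at 15.8 ± 1.15 and 14.7 ± 1.29 CPM under OSS (difference -0.94 ± 0.20, adjusted p = 0.0395 with the block, 0.209 without). Of 25 tested hypoxia genes it was the 1 called, and glycolysis gave 0 of 18, while 0.436% of all tested genes passed below 0. The list medians were -0.06 and -0.14, or -0.01 and -0.04 without the libraries numbered 1. GAPDH lay at 5439.9 ± 498 and 6072 ± 129 CPM in Static culture and 3995 ± 104 and 3407 ± 194 CPM under OSS, a difference of -0.39 ± 0.13 that did not pass (adjusted p = 0.116). SHARPIN, a subunit of the linear ubiquitin ligase, rose in Static culture too (difference -0.82 ± 0.17). CDK14, RABEP1, SEC14L5 and NAA38 had differences of -0.71 to -0.93.

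Others below 0 were small differences in abundant housekeeping transcripts. Of 66 tested cytosolic ribosomal proteins 3 passed, among them RPS4X and RPL36 with differences of -0.49 ± 0.09 and -0.41 ± 0.09. All 66 had a negative value, with a median of -0.31, or -0.20 without the libraries numbered 1. Over all 12840 tested genes 6567 had a negative value, and 0.436% passed below 0. Reads of ribosomal protein genes may be shared with near-identical copies. None of 37 respiratory chain genes passed, although all 37 were negative (median -0.23, or -0.15 with the length trend removed). Of these, 24 fell under OSS against 1 in Static culture, beside 5.05% and 5.31% of all tested genes. The 36 proteasome subunits were a group counted after its values were seen (median -0.26, or -0.14 without number 1). Among them 4 passed below 0, beside 0.436% of all tested genes: PSMD8 (-0.66), PSMB7 (-0.55), PSMB4 (-0.48) and PSMB6 (-0.45). PSMD8 lay at 334 ± 27.2 and 424 ± 31.8 CPM in Static culture and at 501 ± 42.6 and 401 ± 29.6 CPM under OSS, so that its gap closed. FTL, the ferritin light chain, rose in Static culture from 105 ± 5.82 to 146 ± 9.16 CPM beside 139.5 ± 5.94 and 139.9 ± 11.4 CPM under OSS.

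**Figure D4:**
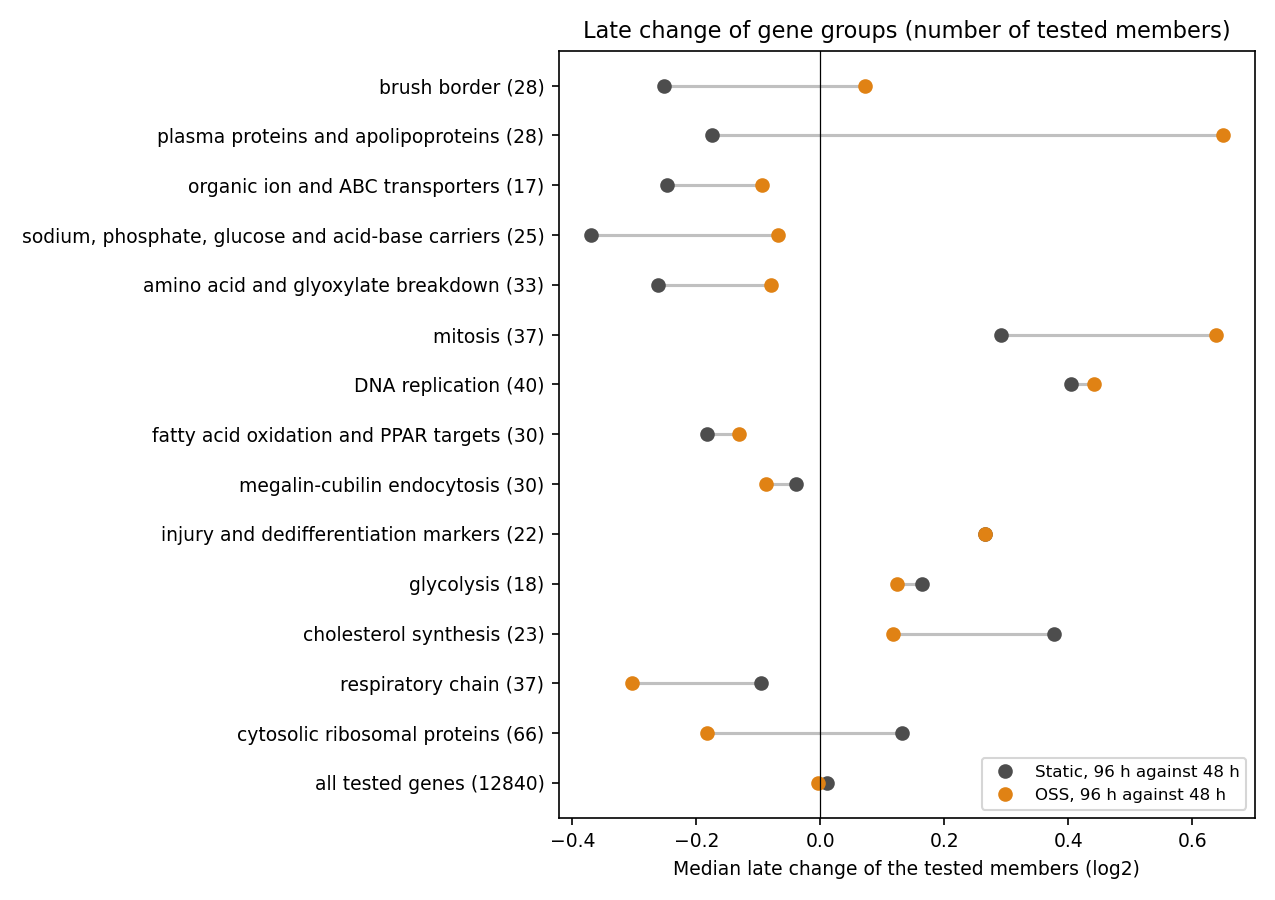
Median change from 48 to 96 h (x axis, log2) of the tested members of 14 gene lists and of all tested genes, in Static culture (grey) and under OSS (orange). Brush border genes had medians of -0.25 and 0.07, plasma proteins -0.17 and 0.65, and ribosomal proteins 0.13 and -0.18.

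The sign of the difference went with the annotated length of the gene, and the part of length in the results was not tested beyond the values given here. The median length was 3555.5 bases for the called genes above 0 and 1418.5 bases for those below, against 2512 bases for all tested genes. Among 5 equal groups by length, from the shortest genes to the longest, the median difference went from -0.13 to 0.12, and the trend ran the same way in each number: -0.23 to 0.19 in number 1, -0.10 to 0.07 in number 2 and -0.09 to 0.08 in number 3. With the length trend of each library removed, 120 genes were called and 97 of the 138 remained, 63 above 0 and 34 below, and all 138 kept their sign. SLC22A6, CYP4A11, DPYS, MME, COL4A4, NPNT, CDH16, ANPEP and HOXD11 stayed called. RPL36 (adjusted p = 0.214), PSMB4 (0.0580), FTL (0.0512), NAA38 (0.109), S100A4 (0.0505), LAMTOR1 (0.0526), PGLS (0.0612) and FOXO1 (0.0578) did not.

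**Figure D5:**
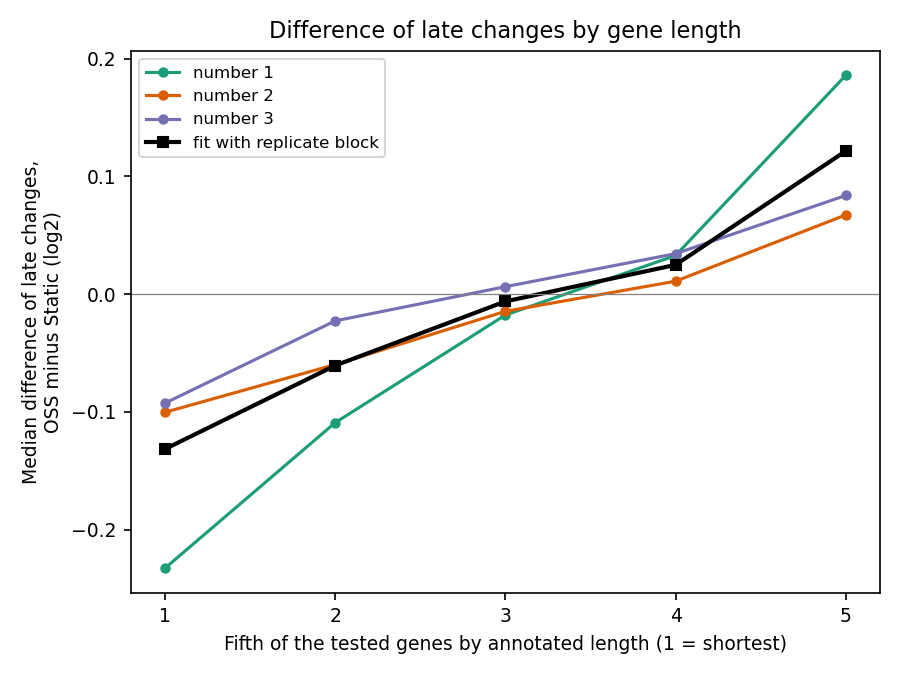
Median difference of late changes (y axis, log2) in 5 equal groups of the tested genes by annotated length, from the fit with the replicate block (black) and from each replicate number. All 4 lines climb from below 0 in the shortest genes (-0.13 in the fit) to above 0 in the longest (0.12).

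Receptor-mediated endocytosis, for which OSS is used in this model, gave no called difference. None of 30 tested genes passed, and the median difference was -0.02. Under OSS 7 of the 30 fell and none rose, and in Static culture 3 fell and none rose. Of all tested genes 5.05% fell under OSS and 5.31% in Static culture. LRP2, which encodes megalin, lay at 4177 ± 362 and 4376 ± 325 CPM in Static culture and at 5929 ± 424 and 6404 ± 681 CPM under OSS, with a gap of 0.51 ± 0.10 at 48 h and 0.55 ± 0.10 at 96 h. Its difference was 0.04 ± 0.15 (adjusted p = 0.903), and that of AMN, which anchors cubilin, 0.09 ± 0.13 (adjusted p = 0.739). CUBN, the cubilin gene, fell in Static culture from 1929 ± 482 to 1179 ± 96.8 CPM, and the endocytic adaptor gene DAB2 from 273 ± 108 to 184 ± 18.9 CPM. Their differences of 0.46 ± 0.12 and 0.69 ± 0.18 missed the threshold (adjusted p = 0.0693 and 0.0666 with the block). With the length trend removed, the value was 0.16 for CUBN (adjusted p = 0.427), 0.56 for DAB2 (0.0964) and -0.32 for LRP2 (0.403).

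Of 37 mitosis genes 32 rose under OSS and 7 in Static culture, where 30 did not pass. Of all tested genes 6.31% rose under OSS and 5.12% in Static culture. No mitosis gene had a called difference, although 36 of 37 were positive, beside 6273 of all 12840 tested genes. Their median was 0.31, or 0.22 with the length trend removed and 0.33 without the libraries numbered 1. TOP2A, the topoisomerase of dividing cells, rose from 393 ± 8.16 to 693 ± 60.4 CPM under OSS and from 347 ± 25.2 to 469 ± 35.1 CPM in Static culture (difference 0.38 ± 0.16, adjusted p = 0.192). DNA replication genes rose in 24 of 40 cases under OSS and in 18 of 40 in Static culture, with a median difference of 0.03. The transcription factor list gave 2 calls of 40, both above 0, beside 0.639% of all tested genes. Its median difference was 0.18, or 0.07 without the libraries numbered 1 and 0.16 with the length trend removed. The better measured of the 2 identifiers named TFEC, a relative of MITF, had a difference of 1.05 ± 0.20. FOXO1, a target of insulin signalling, had one of 0.72 ± 0.16.

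Single members passed on further lists. SLC12A1, the sodium-potassium-chloride carrier that marks the thick ascending limb, rose under OSS from 21.6 ± 5.26 to 32.2 ± 6.31 CPM against 5.51 ± 0.916 and 4.47 ± 1.05 CPM in Static culture (difference 0.89 ± 0.16). The interferon-induced gene IFIT1 (0.93 ± 0.16) and the retinal dehydrogenase gene ALDH1A1 (0.68 ± 0.12 and 0.60 ± 0.11 for its 2 identifiers) fell in Static culture, and BLVRB, a biliverdin reductase, fell under OSS (-0.69 ± 0.13). Cholesterol synthesis, endoplasmic reticulum chaperones, heat shock proteins, inflammatory mediators and YAP targets gave 0 calls of 23, 17, 19, 20 and 21 tested genes.

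The 10 smallest unadjusted p-values without the block, all at an adjusted p of 0.120 to 0.132, belonged to SLC22A6, BTG1, CYP4A11, HOGA1, LAMTOR1, PGLS, KIF9, ZFAND5, EPHB2 and BLVRB. The gap changed sign for BTG1, LAMTOR1 and PGLS, from 0.30 ± 0.06 to -0.19 ± 0.06 for LAMTOR1 and from 0.32 ± 0.06 to -0.17 ± 0.06 for PGLS. BTG1, an antiproliferative gene, went the other way. Static libraries held 142, 105 and 119 CPM at 48 h and 78.7, 71.6 and 82.1 CPM at 96 h, against 85.7, 89.0 and 97.5 and then 97.0, 95.6 and 111 CPM under OSS. Its gap went from -0.43 ± 0.09 to 0.39 ± 0.09.

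With the block, the calls of 11 of the 138 genes held whichever 1 of the 12 libraries was left out: SSUH2, COL4A4, CYP4A11, SLC22A6, ACSM2A, MME, DPYS, NPNT, LRG1 and SYDE2 above 0, and HOXD11 below. Without the libraries numbered 1, COL4A4 (adjusted p = 0.00220), MME (0.00628), DPYS (0.0182), SLC22A6 (0.0250), PARM1 (0.0250), CYP4A11 (0.0254), AMBP (0.0254), NPNT (0.0254), MEP1A (0.0387) and ACSM2A (0.0489) were still called, and AKAP13 was the eleventh.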

How the data were processed

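The deposited table of raw counts per Ensembl gene was used. Per the labels and the study's methods, the authors pooled RNA of 3 experiments per sample, sequenced ribosome-depleted stranded total RNA as 75 bp read pairs, trimmed with cutadapt, mapped to MonDom5 with TopHat2 (6 mismatches allowed), removed mitochondrial and ribosomal RNA reads and counted with featureCounts of the Subread package. Which versions, annotation release and strand option were used is not given in the sources used here. Annotated gene length came from the same sheet. A second deposited sheet, with 1 row per gene name, served as an alternative, and the other sheets (selected genes with the authors' averages and t-test results) were not used.

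Counts were fitted in R 4.3.3 with edgeR 4.0.16 (TMM factors, trended dispersions, legacy quasi-likelihood F-test) over all 18 libraries, 1 coefficient per condition, after a filter of more than 1 CPM in at least 6 libraries. P-values were adjusted by Benjamini-Hochberg over 12840 genes at 0.05. The biological coefficient of variation was 17.7% without and 11.4% with the replicate block. Total counts of 40154553 to 79745362 set the counting precision. Levels are TMM-scaled CPM with SD, and the SE was taken as the log2 change over the root of its F statistic. Per-number differences used log2 CPM with a prior count of 2.

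Groups and numbers came from the sample titles. Deviations from the condition means correlated between same-numbered libraries in all 18 pairs within the 4 conditions. Pearson r over genes was 0.374 to 0.776 (median 0.550, threshold 0.1), and so the numbers were taken to pair the libraries. For numbers 2 and 3 the highest r with a different number was 0.158 to 0.451, also over the threshold, and for number 1 it was negative. The threshold thus could not tell pairing from number 1 standing apart.

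Named genes were those called without the block (none), the 12 largest called differences in each direction with the block (unique symbol, mean log2 CPM of at least 1, same sign in all 3 numbers), the 10 smallest p without it, up to 4 called members per list (in a list with none, up to 2 of the highest level) and LRP2, CUBN, AMN and DAB2. Some genes that the rule names are not reported here. Contrast, members and the 37 lists were chosen with earlier results of these data known. For a symbol with several identifiers, lists used the one with the highest level. Alternatives used DESeq2 1.42.0 and limma 3.58.1. The fits were first tested on simulated data with known changes. Plots were made in Python 3.11.15 (matplotlib 3.10.9).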

Additional observations from a re-analysis of the deposited data

Results flagged for a closer look

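The late change differed between OSS and Static culture, by the test of the difference itself with the replicate number as a block, for 138 genes, of which 0 passed without the block. Among the genes named by the rule given above and reported here, the difference in log2 units was above 0 for COL4A4 (2.89), VTN (2.82), TTR (2.63), CYP4A11 (2.49), UROC1 (2.28), SLC22A6 (2.12), UNC93A (1.76), ACSM2A (1.66), MME (1.59), DPYS (1.55), FAM151A (1.52), SLC5A10 (1.49), AMBP (1.48), MEP1A (1.48), ACMSD (1.37), TFEC (1.05), HOGA1 (0.99), SLC5A12 (0.97), CDH16 (0.94), IFIT1 (0.93), SLC12A1 (0.89), BTG1 (0.82), SLC2A5 (0.80), FOXO1 (0.72), EPHB2 (0.70), ALDH1A1 (0.68), KIF9 (0.64) and ZFAND5 (0.52). It was below 0 for RPL36 (-0.41), FTL (-0.47), LAMTOR1 (-0.48), PGLS (-0.48), RPS4X (-0.49), ARG2 (-0.57), BLVRB (-0.69), CDK14 (-0.71), RABEP1 (-0.75), LGALS3 (-0.77), NAA38 (-0.77), SHARPIN (-0.82), SEC14L5 (-0.93), LOX (-0.94), HOXD11 (-1.05), KCNK2 (-1.09), CHAC1 (-1.09), S100A4 (-1.11) and SERPINA5 (-1.93).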

How the results depend on the processing

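Without the block, the 0 genes with a differing late change became 228 with DESeq2, 1 with limma-voom, 138 with the replicate block, 151 with the replicate block over the 12 libraries only, and 0 to 24 when single libraries were left out. With the block, the 138 became 224 with DESeq2's size factors, 785 with DESeq2, 19 without the libraries numbered 1, 0 without the block and 12 to 1332 with single libraries left out. Within OSS the 310 genes became 145 with no filter on low counts, 768 with DESeq2, 84 without number 1, 13 to 533 with single libraries left out, and 1458 with the block (1639 over 12 libraries). The 1458 became 769 without number 1. Within Static culture the 59 became 99 without scaling factors, 693 with DESeq2, 2 without number 1, 0 to 1089 with single libraries left out, and 1340 with the block (1136 over 12 libraries). The 1340 became 2051 with DESeq2 and 177 without number 1. The causes were not tested. With the block and single libraries left out, the counts were 534 to 2185 within OSS and 263 to 2648 in Static culture. The 48 called genes named by the rule kept their direction under every alternative run, as their selection from the same libraries favours. Leaving out the libraries numbered 1 and removing the length trend were chosen after seeing the data. Genes at a few counts per library, such as VTN and SSUH2 in Static culture, are limited by depth.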
